A study of Mus musculus with 38 samples.

Results

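The 13 arrays described here came from the hypothalamus of mice that had received a vector carrying a fragment of the huntingtin (HTT) gene, and they make up 13 of the 38 arrays of the series. The 5 mice of the 18Q group and the 8 mice of the 79Q group were female wild-type mice of the FVB/N strain. At 8 weeks of age they were injected on both sides with an adeno-associated viral vector of serotype 5 (rAAV5) encoding the first 853 amino acids of human HTT, with 18 CAG repeats in 18Q (a normal length) and 79 in 79Q (a mutant length). The human Synapsin (Syn-1) promoter, which is active in neurons, drove the fragment. The injected mice were sacrificed at 12 weeks of age, 4 weeks after the injection, together with 5 uninjected WT control mice of the same age and strain. No array used here came from mice given a vector without HTT, so that the vector, the surgery and the HTT fragment cannot be told apart. The other 20 arrays came from BACHD mice, female FVB/N transgenics that carry full-length HTT with 97 CAG repeats in all tissues, and from age-matched WT mice, all at 2 or 10 months of age and without injection. All 38 mice are separate samples by their labels, with 1 array each.

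The 13 arrays were chosen by their labels, and the mice were ordered by their own interferon response. For each injected mouse an interferon strength was computed as the mean of 3 genes, Ifit1, Oasl2 and Ifi44, after the mean of the mouse's own group (18Q or 79Q) had been subtracted from each gene. The question was which other genes followed this strength from mouse to mouse, with the difference between the groups set aside. The genes described were selected on their slope against this measured score, so the levels of the 3 score genes, which set the order of the mice, are a description with no test.

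Type I interferons are secreted proteins that cells release on sensing viral or other misplaced nucleic acid. They bind a receptor on neighboring cells, and a protein complex that holds Irf9 then enters the nucleus, binds the interferon-stimulated response element in promoters and switches on a large set of antiviral genes. In the brain, microglia, astrocytes, endothelial cells and neurons can all respond. Type II interferon, made by T and NK cells, acts through a different receptor and preferentially induces guanylate-binding proteins, antigen presentation genes and the chemokines Cxcl9 and Cxcl10.

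The promoter sequences of the 3 score genes and of 5 genes described later are shown because the response element is the DNA sequence through which interferon signaling reaches its targets. The letters GAAANNGAAA were searched on both strands in a window from 250 bases before to 50 bases after each gene's start (RefSeq, mouse build GRCm38.p6), and matches are in capitals. Each sequence is a stretch of that window, 5′ to 3′ along the gene's strand. Ifit1 encodes a protein that binds foreign RNA, and its stretch at chr19:34640754-34640843, plus strand, held 2 matches. Oasl2 belongs to the oligoadenylate synthetase family of RNA sensors (chr5:114896844-114896933, plus strand), and Ifi44 encodes a cytoplasmic interferon-induced protein (chr3:151749911-151750000, minus strand). Neither window held these exact letters. Gbp3 (chr3:142559954-142560043, plus strand) and Gbp7 (chr3:142530243-142530332, plus strand) encode guanylate-binding proteins, and the 2 matches of Gbp3 overlapped. Cxcl10 (chr5:92349050-92349139, minus strand) encodes a chemokine that attracts T cells. Cybb (chrX:9469339-9469497, minus strand) encodes the catalytic subunit of the phagocyte NADPH oxidase, and Fcgr4 (chr1:171018813-171018902, plus strand) a receptor for immunoglobulin G.
Ifit1: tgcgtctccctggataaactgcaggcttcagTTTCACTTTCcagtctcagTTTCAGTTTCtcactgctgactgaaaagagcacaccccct
Oasl2: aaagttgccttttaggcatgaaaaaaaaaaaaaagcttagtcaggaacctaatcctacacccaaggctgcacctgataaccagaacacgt
Ifi44: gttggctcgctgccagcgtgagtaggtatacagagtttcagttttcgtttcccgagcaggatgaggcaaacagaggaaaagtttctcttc
Gbp3: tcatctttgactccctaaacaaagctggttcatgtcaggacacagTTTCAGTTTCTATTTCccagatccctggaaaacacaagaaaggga
Gbp7: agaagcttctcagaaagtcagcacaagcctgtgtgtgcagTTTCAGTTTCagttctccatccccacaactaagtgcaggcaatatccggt
Cxcl10: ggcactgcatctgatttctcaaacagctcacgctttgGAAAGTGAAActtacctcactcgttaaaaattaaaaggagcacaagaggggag
Cybb: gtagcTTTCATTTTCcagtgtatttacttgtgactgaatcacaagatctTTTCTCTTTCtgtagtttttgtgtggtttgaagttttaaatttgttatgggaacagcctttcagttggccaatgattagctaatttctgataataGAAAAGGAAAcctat
Fcgr4: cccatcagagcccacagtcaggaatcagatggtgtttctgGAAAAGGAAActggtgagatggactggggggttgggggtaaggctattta

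All 13 injected mice carried a strong interferon response, but its strength differed about 2.5-fold between the weakest and the strongest mouse of each group. The score, the mean log2 signal of the 3 genes before centering, was 10.29 ± 0.54 (SD, n = 5) in 18Q, 9.85 ± 0.40 (n = 8) in 79Q and 6.88 ± 0.045 (n = 5) in WT control. After centering, the strength was 0.61, -0.27, -0.07, 0.44 and -0.71 in 18Q replicates 1, 2, 3, 4 and 6. In 79Q it was -0.14, 0.21, -0.23, 0.25, -0.56, -0.31, 0.74 and 0.04 in replicates 1 to 8. The range was 1.32 on the log2 scale (2.50-fold) in 18Q and 1.29 (2.45-fold) in 79Q, against 0.099 in the WT control mice. The injected and uninjected mice did not overlap, and the weakest injected mouse lay 2.41 above the WT control mean. Across the 13 arrays the 3 score genes followed each other with a Pearson r of 0.967 to 0.981 after centering, given as a description.

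**Figure D1:**
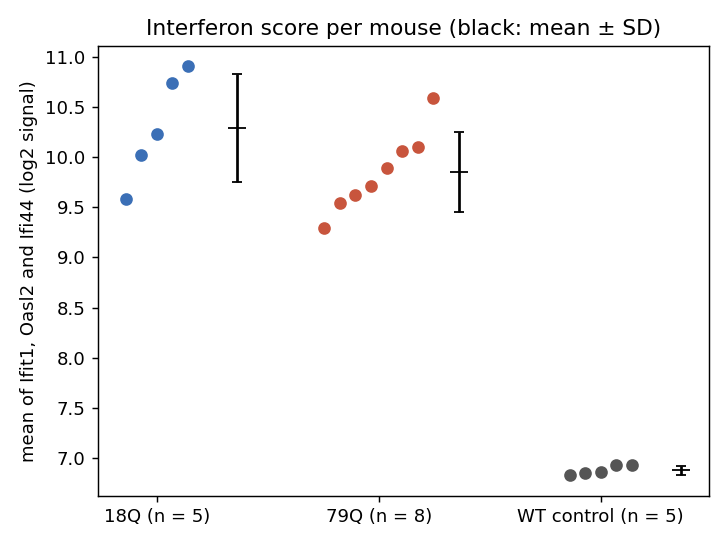
Mean log2 signal of Ifit1, Oasl2 and Ifi44 (vertical axis) in every mouse of 18Q, 79Q and WT control; black bars are the group mean and SD. The injected mice spread over 1.32 log2 units in 18Q and 1.29 in 79Q, whereas the uninjected mice spread over 0.099.

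The arrays had been normalized by RMA, which brings array medians close together, here 7.39 to 7.46 in the injected mice. The median signal of an array can therefore show little of differences in loading or hybridization. This array median correlated with interferon strength at a Pearson r of 0.299 (permutation p = 0.37) and a Spearman rho of 0.434 (permutation p = 0.168). Without 79Q replicate 7 and 18Q replicate 1, the 2 mice farthest from the median strength, r was 0.473. The hypothalamic peptide genes Pmch (melanin-concentrating hormone) and Hcrt (hypocretin) were among the bright genes in every injected mouse, at 11.72 to 12.62 for Pmch and 11.80 to 12.87 for Hcrt on the log2 scale. Markers of adjoining tissue varied between the mice: the mean level of 9 pituitary markers ran from 7.03 to 8.02 in 18Q, from 6.71 to 7.87 in 79Q and from 6.75 to 7.11 in WT control, and that of 14 thalamic markers from 8.80 to 9.30, 8.76 to 9.22 and 8.79 to 9.06. No member of either list passed the test against interferon strength, and the median slopes were -0.13 and 0.05. Their part in the results below was not tested, except that oligodendrocyte and thalamic levels as covariates left 99 probe sets higher in place of 110. In whole tissue, a change in the number of cells of a type and a change in RNA per cell cannot be told apart.

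A slope was fitted for every probe set, which is the change in its log2 signal for a change of 1 in interferon strength, with a separate mean for 18Q and 79Q. A slope of 1 means that the part of a gene's level that followed the score moved as far as the score did; a gene can vary further on its own. With limma and Benjamini-Hochberg adjustment over all probe sets, 110 of 34757 probe sets rose with interferon strength at adjusted p under 0.05 (0.316%), and 2 fell (0.00575%). Of the genes with a name, 81 of 20019 rose (0.405%) and 1 fell (0.005%). At an unadjusted p under 0.05, 736 genes were higher (3.68%) and 328 lower (1.64%). The slopes of the 81 genes ran from 0.28 to 1.28 with a median of 0.68, against a median of -0.0075 over all genes, and 8 of them had a slope over 1. The number of calls rested strongly on 3 mice. It was 27 probe sets without 18Q replicate 6 (the weakest 18Q mouse), 31 without 79Q replicate 7 (the strongest 79Q mouse) and 56 without 18Q replicate 4, but 88 without 18Q replicate 1 (the strongest 18Q mouse), 94 without 79Q replicate 5 (the weakest 79Q mouse) and between 77 and 130 without any other single mouse. The slopes of all 81 genes stayed above 0 whichever mouse was left out, which follows largely from their choice by this slope. Of the 81, 23 passed the threshold each time.

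**Figure D2:**
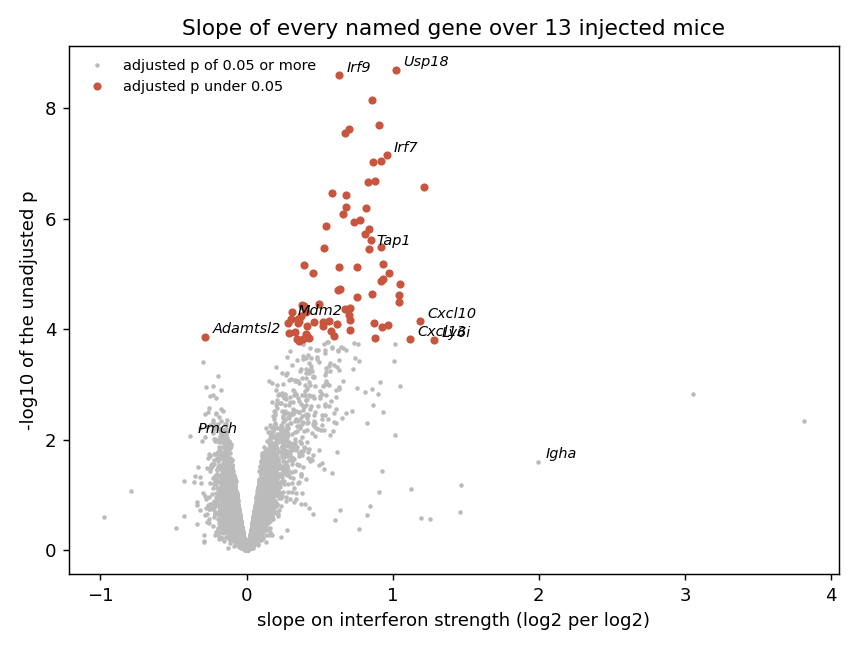
Slope on interferon strength (horizontal axis, log2 per log2) against −log10 of the unadjusted p (vertical axis) for every named gene except the 3 score genes. Genes past the adjusted threshold are red; 81 lie to the right and 1, Adamtsl2, to the left.

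The genes of smallest p were core components of the type I interferon response. Of 46 measured members of the type I interferon list, 31 rose with adjusted p under 0.05 and all 46 had an unadjusted p under 0.05 with a positive slope; the median slope was 0.67. Usp18, a protease that removes the ubiquitin-like protein Isg15 and dampens the interferon receptor, had levels of 10.45, 9.63, 9.64, 10.19 and 9.08 in 18Q replicates 1, 2, 3, 4 and 6. In 79Q its lowest, median and highest levels were 8.87, 9.38 and 10.20, and in WT control 6.52 to 6.63. The mice with the highest and the lowest Usp18 in each group were those with the highest and the lowest interferon strength. Its slope was 1.02 (SE 0.069, adjusted p = 1.75e-05). Irf9, the DNA-binding subunit of the interferon-activated complex, had levels of 10.15, 9.67, 9.65, 10.06 and 9.28 in 18Q and a lowest, median and highest level of 9.20, 9.46 and 10.00 in 79Q. It rose with a slope of 0.63 (SE 0.043, adjusted p = 1.76e-05).

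Other genes of small p were Irf7, the factor that amplifies interferon production (slope 0.96, SE 0.087, adjusted p = 0.000248), Rtp4 (slope 0.86, adjusted p = 4.12e-05) and the oligoadenylate synthetase Oas1b (slope 0.91, adjusted p = 9.81e-05). Mx2, an antiviral GTPase, had a slope of 0.93 (adjusted p = 0.00608). Of these 6 genes, Mx2 is outside the 23 that passed whichever mouse was left out.

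**Figure D3:**
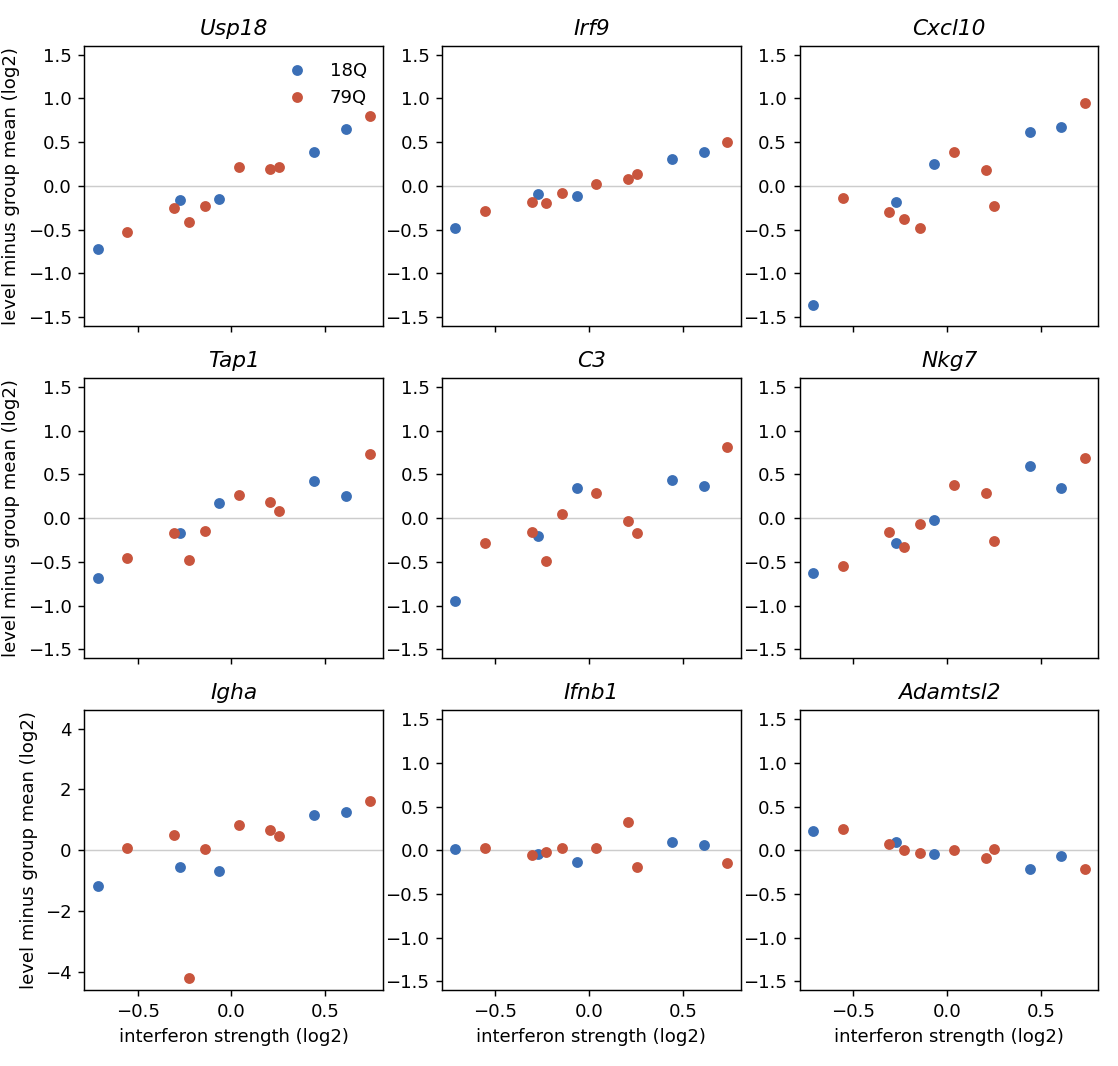
Level of 9 genes in each of the 13 injected mice after subtraction of the mean of its group (vertical axis, log2) against interferon strength (horizontal axis, log2), 18Q in blue and 79Q in red; the axis of Igha is wider. Usp18 and Irf9 lie close to a line, Cxcl10 and C3 scatter more, Igha has 1 mouse far below the others, Ifnb1 is flat and Adamtsl2 slopes down.

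Interferon-inducible GTPases, large proteins that attack the vacuoles of intracellular pathogens, had the highest median slope of the 40 lists, although single members of other lists were steeper. Of 8 measured members, 6 rose and all 8 had an unadjusted p under 0.05, with a median slope of 0.91. The slope was 0.92 (SE 0.085, adjusted p = 0.000267) for Gbp3, 0.83 for Gbp7, 0.98 for Gbp8 and 1.05 for Iigp1, all with adjusted p under 0.05. The related Gm4951 had a slope of 1.22 (SE 0.12) and BC023105 1.04. Gbp3, Gbp7 and Gm4951 passed whichever mouse was left out, whereas without 79Q replicate 7 the adjusted p was 0.105 for Gbp8, 0.133 for Iigp1 and 0.133 for BC023105, and without 18Q replicate 6 it was 0.101, 0.13 and 0.164. Members of the Gbp, Oas and Ifit families have near-identical copies, and a probe set of 1 copy may read others. Ly6i, a surface protein of the Ly6 family, had the largest slope among the 81 genes (1.28, SE 0.24, adjusted p = 0.0486; 0.414 without 18Q replicate 6). Its level ran from 5.83 to 8.01 in 18Q and from 6.10 to 8.11 in 79Q, and the lowest 18Q mouse lay near the WT control range of 5.41 to 5.78.

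Among the genes that make, receive and relay the interferon signal, 1 passed. In the list of interferon ligands, receptors and signaling genes, 1 of 20 members passed, Irf1, a factor induced by type II interferon (slope 0.56, SE 0.098, adjusted p = 0.0293; 0.259 without 18Q replicate 6), and 9 had an unadjusted p under 0.05, with 18 positive slopes and a median of 0.079. The members differed widely: the slope was 0.73 (SE 0.16, adjusted p = 0.101) for Isg20, an interferon-induced exonuclease, and 0.41 (SE 0.12, adjusted p = 0.315) for Irf8, a factor of myeloid cells, whereas the ligands and the receptor subunit described next lay near 0. Ifnb1, which encodes interferon beta, had levels of 5.42, 5.31, 5.21, 5.45 and 5.37 in 18Q, 5.24, 5.43 and 5.75 (lowest, median, highest) in 79Q and 5.16 to 5.63 in WT control. The 3 groups overlapped, and the slope was 0.0041 (SE 0.089), with a sign that turned under several alternatives. All these Ifnb1 levels lay well below the array medians of 7.39 to 7.46 in the injected mice. Whether the probe set read any Ifnb1 RNA was not tested, so its flat slope cannot be read either way. The slope was 0.05 (SE 0.097) for Ifng, interferon gamma, and 0.0057 (SE 0.044, also of unstable sign) for Ifnar1, a subunit of the type I receptor. Over the 8 mice of 79Q alone, Ifnar1 followed the strength with a Pearson r of 0.82, whereas in 18Q alone its slope was -0.073. Of 22 nucleic acid sensors and Toll-like receptors, none passed (limma) and 13 had an unadjusted p under 0.05 and a positive slope. These included Ly86 (0.54, adjusted p = 0.0997), Tlr2 (0.33, adjusted p = 0.138) and the adaptor Myd88 (0.33, adjusted p = 0.141). The slope of Tlr7, an endosomal RNA sensor, was 0.47 (adjusted p = 0.542).

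Several genes of antigen presentation through MHC class I rose with the strength, from peptide production to the surface molecule. Of 18 members, 7 passed and 14 had an unadjusted p under 0.05, with a median slope of 0.36. Tap1, a subunit of the peptide transporter into the endoplasmic reticulum, had levels of 9.08, 8.65, 8.99, 9.25 and 8.14 in 18Q, 8.24, 8.69 and 9.45 in 79Q and 7.16 to 7.34 in WT control. The weakest 18Q mouse had the lowest Tap1 of all injected mice, still above every uninjected mouse, and the slope was 0.84 (SE 0.11, adjusted p = 0.00355; 0.0592 without 18Q replicate 6). The class I gene H2-Q4 had a slope of 0.92 (adjusted p = 0.00985), the immunoproteasome subunit Psmb8 0.71 (adjusted p = 0.0218) and the proteasome activator Psme2 0.40 (adjusted p = 0.0211). Without 18Q replicate 6 the adjusted p was 0.128, 0.227 and 0.143, and without 79Q replicate 7 0.107, 0.19 and 0.0986. By comparison, none of 31 constitutive proteasome subunits had an unadjusted p under 0.05, and their median slope was -0.00029. In the MHC class II list none of 13 members passed (limma), although all 13 slopes were positive and 9 had an unadjusted p under 0.05. The class II invariant chain Cd74 had a slope of 0.93 with an SE of 0.26 (adjusted p = 0.305), Ctss, the protease that degrades it, 0.57 (adjusted p = 0.155) and Ifi30 0.38 (adjusted p = 0.075).

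**Figure D4:**
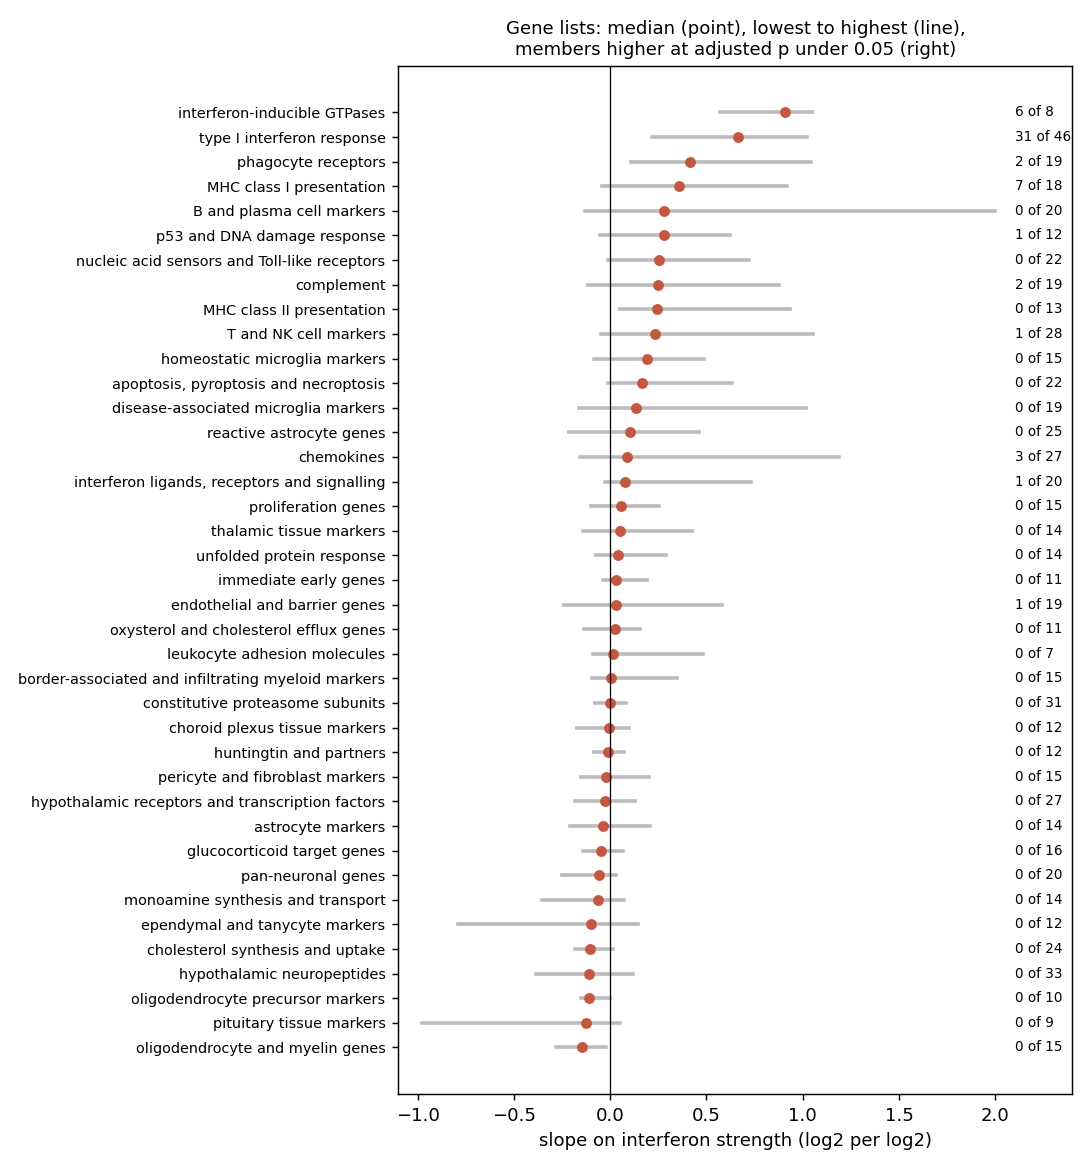
Slopes on interferon strength (horizontal axis, log2 per log2) of the members of 39 gene lists with 5 or more measured genes; points are list medians, lines run from the lowest to the highest member, and the right column counts members past the adjusted threshold. Interferon-inducible GTPases and the type I interferon response lie far to the right of the other lists.

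Among 27 chemokines, the 3 that passed were Cxcl9, Cxcl10 and Cxcl13, and 11 had an unadjusted p under 0.05, with 19 positive and 8 negative slopes and a median of 0.086. Cxcl10 had levels of 11.63, 10.76, 11.20, 11.57 and 9.59 in 18Q, 9.96, 10.26 and 11.39 in 79Q and 6.90 to 7.20 in WT control. The 18Q mice thus differed over a 2.04 log2 range, which 18Q replicate 6 set at the lower end. The slope was 1.19 (SE 0.21, adjusted p = 0.0293; 0.265 without that mouse). Cxcl13, which attracts B cells, had levels of 11.86, 11.03, 11.95, 12.01 and 10.19 in 18Q and 10.70, 10.83 and 12.13 in 79Q, against 5.10 to 5.61 in WT control. Its slope was 1.12 (SE 0.21, adjusted p = 0.0473; 0.403 without 18Q replicate 6). Cxcl9 had a slope of 0.97 (adjusted p = 0.0308; 0.291 without 18Q replicate 6), and Ccl12, with 0.53, stayed just outside the threshold (adjusted p = 0.0515). With each mouse left out in turn, Cxcl10 passed in 7 of 13 fits, Cxcl9 in 8 and Cxcl13 in 4. The genes nearest to the threshold on either side were Cxcl13, Ly6i and B2m (0.0487) inside and Vcam1, Pld4 (both 0.0501) and Trim30d (0.0504) outside.

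A few genes of phagocytes and complement rose as well. Of 19 phagocyte receptor genes, 2 passed and 15 had an unadjusted p under 0.05, with a median slope of 0.42. Cybb had levels of 8.59, 7.83, 8.24, 8.53 and 6.91 in 18Q, 7.21, 7.71 and 8.63 in 79Q and 5.76 to 6.13 in WT control, with a slope of 1.04 (SE 0.17, adjusted p = 0.0193; 0.185 without 18Q replicate 6). Fcgr4 had a slope of 0.39 (SE 0.054, adjusted p = 0.00629; 0.0671 without 18Q replicate 6), and Aif1, which encodes the microglial protein Iba1, 0.44 (adjusted p = 0.0736). Of 19 complement genes, 2 passed and 11 had an unadjusted p under 0.05. C3, the central complement component, had levels of 9.72, 9.15, 9.69, 9.79 and 8.41 in 18Q, 8.62, 9.02 and 9.92 in 79Q and 7.54 to 7.74 in WT control. Its slope was 0.88 (SE 0.16, adjusted p = 0.0465; 0.397 without 18Q replicate 6). Cfb, factor B of the alternative pathway, had a slope of 0.63 (SE 0.087, adjusted p = 0.00658; 0.0912 without 18Q replicate 6), C1qc 0.68 (adjusted p = 0.0601) and C4b 0.66 (adjusted p = 0.141).

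Markers that define microglia and astrocytes passed the test in no case, by limma. Of 15 homeostatic microglia markers, 8 had an unadjusted p under 0.05, 11 slopes were positive and 4 negative, and the median was 0.19; the slope was 0.49 for Tmem119 (adjusted p = 0.0601), 0.27 for Cx3cr1 and 0.19 for P2ry12. Of 19 disease-associated microglia markers, 8 had an unadjusted p under 0.05, 16 slopes were positive and 3 negative (lowest -0.16), and the median was 0.13; the slope was 1.02 for Cst7 with an SE of 0.33 (adjusted p = 0.526) and 0.50 for Itgax (adjusted p = 0.205). Of 15 border-associated and infiltrating myeloid markers, 1 had an unadjusted p under 0.05, and the median slope was 0.0032. Of 14 general astrocyte markers, 11 had a negative slope, 2 of them with an unadjusted p under 0.05 and none higher, and the median was -0.04. Of 25 reactive astrocyte genes, 8 had an unadjusted p under 0.05, 22 slopes were positive, and the median was 0.11; the slope was 0.46 for Osmr (adjusted p = 0.389), 0.22 for Gfap (SE 0.16) and 0.14 for Serpina3n. Ly6a, a marker of brain endothelium, was the only member of the 19 endothelial and barrier genes to pass (slope 0.58, SE 0.11, adjusted p = 0.0383; 0.311 without 79Q replicate 7). The median slope of that list was 0.028, and 6 members had a negative slope (lowest -0.24), 1 of them with an unadjusted p under 0.05. The adhesion molecules Vcam1 and Icam1 had slopes of 0.35 and 0.48 (adjusted p = 0.0501 and 0.0735).

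Few markers of lymphocytes passed the test, and the plasma cell gene Igha varied over the widest range of the genes described here. Of 28 T and NK cell markers, 1 passed and 16 had an unadjusted p under 0.05, with a median slope of 0.23; the mean level of the list ran from 6.24 to 6.62 in 18Q, from 6.18 to 6.55 in 79Q and from 6.01 to 6.11 in WT control. Nkg7, a granule protein of cytotoxic T and NK cells, had levels of 7.31, 6.67, 6.94, 7.56 and 6.34 in 18Q, 6.26, 6.69 and 7.49 in 79Q and 5.76 to 6.25 in WT control. The lowest injected mouse (6.26) lay just above the highest uninjected mouse (6.25), and the highest levels were in mice of high strength. The slope was 0.86 (SE 0.13, adjusted p = 0.0143), with an adjusted p of 0.14 without 79Q replicate 7. The slope was 1.05 (SE 0.25, adjusted p = 0.158) for Cd3g, a subunit of the T cell receptor complex, and 0.59 (adjusted p = 0.0572) for the chemokine receptor Cxcr6.

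Of 20 B and plasma cell markers, none passed (limma) and 7 had an unadjusted p under 0.05. Igha, the constant region of immunoglobulin A, had levels of 12.88, 11.04, 10.94, 12.75 and 10.42 in 18Q, 7.44, 12.13 and 13.24 in 79Q and 6.85 to 7.56 in WT control. The lowest 79Q value belonged to replicate 3, which lay within the uninjected range, while the other 12 injected mice lay at 10.42 or above. The slope was 2.00 with an SE of 0.79 (adjusted p = 0.851), and without 79Q replicate 3 it was 1.56 (adjusted p = 0.0166). Jchain, the joining chain of secreted immunoglobulin A and M, had levels of 8.87 to 11.02 in 18Q and 6.83 to 10.93 in 79Q, with a slope of 1.13 (SE 0.59) that did not pass.

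Among the listed stress and cell death genes, 1 passed. Apaf1, an apoptosis gene outside these lists, was also among the 81 genes that rose. Of 12 genes of the p53 and DNA damage response, 1 passed and 10 had an unadjusted p under 0.05, with a median slope of 0.28. The gene that passed was Mdm2, the ubiquitin ligase that p53 induces and that degrades it, with levels of 9.29, 9.02, 9.03, 9.23 and 8.77 in 18Q, 8.95, 9.08 and 9.30 in 79Q and 8.81 to 8.92 in WT control. The groups overlapped, and the slope was 0.30 (SE 0.052, adjusted p = 0.0287; 0.283 without 18Q replicate 6). The death receptor Tnfrsf10b had a slope of 0.62 (adjusted p = 0.0603), Eda2r 0.60 (adjusted p = 0.0914) and the cyclin Ccng1 0.44 (adjusted p = 0.0925). Of 22 measured members in the list of apoptosis, pyroptosis and necroptosis, none passed (limma) and 11 had an unadjusted p under 0.05, including Casp4 (0.63, adjusted p = 0.0795) and Casp1 (0.37, adjusted p = 0.101).

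On the lower side, the only named gene past the threshold was Adamtsl2, a secreted glycoprotein of the extracellular matrix, with levels of 7.52, 7.68, 7.53, 7.36 and 7.80 in 18Q, 7.34, 7.56 and 7.80 in 79Q and 7.68 to 7.80 in WT control. The lowest levels were in mice of high strength, and the slope was -0.28 (SE 0.053, adjusted p = 0.0445). It passed without 3 of the 13 mice in turn and not without the others, with an adjusted p of 0.34 without 18Q replicate 6. Papss2, which makes the donor for sulfation, had a slope of -0.30 (adjusted p = 0.0837), the neurotensin receptor Ntsr2 -0.23 (adjusted p = 0.158) and the heat shock protein Hspa12b -0.20 (adjusted p = 0.121).

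In the hypothalamic neuropeptide list none of 33 members passed (limma); 27 slopes were negative and 6 positive, where 44.7% of all genes had a positive slope, and 5 had an unadjusted p under 0.05. Crh, corticotropin-releasing hormone, had a slope of -0.28 (SE 0.066, adjusted p = 0.162), Pmch -0.39 (SE 0.12, adjusted p = 0.542) and Hcrt -0.33 (SE 0.14, adjusted p = 0.921). The hypocretin receptor Hcrtr2 had a slope of -0.18 (adjusted p = 0.486). In the list of cholesterol synthesis and uptake none of 24 members passed (limma), 23 slopes were negative and 6 had an unadjusted p under 0.05, with a median slope of -0.10. The slope was -0.13, -0.11 and -0.16 for the synthesis enzymes Mvd, Sqle and Hmgcs1. All 15 oligodendrocyte and myelin genes had negative slopes with a median of -0.15, and none reached an unadjusted p under 0.05; for Mobp, a myelin protein, the slope was -0.25 (SE 0.17). The mean level of that list ran from 10.26 to 11.02 in 18Q and from 10.24 to 10.75 in 79Q. For Syn1, whose human counterpart lent the vector its promoter, the slope was -0.09, and for mouse Htt it was 0.03 (SE 0.039).

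Interferon strength was set within each group, so that each group gives its own slopes. For the 81 genes, slopes in 18Q ran from 0.24 to 1.46 (median 0.68) and in 79Q from 0.22 to 1.20 (median 0.70). These genes were chosen on the slope over both groups together, so positive slopes in each group follow largely from that choice. No probe set differed in slope between 79Q and 18Q after adjustment (limma interaction, smallest adjusted p = 0.999). At an unadjusted p under 0.05, 1467 of 34757 probe sets did, fewer than chance gives at that threshold, and none of them represents the 81 genes. A missing difference in a design of 5 and 8 mice does not show that slopes were alike. A gene chosen in 1 group was then read in the other, against the same score genes. Such genes vary together and are not independent cases, so the counts that follow are a description and not a replication. At the adjusted threshold, 4 genes rose in 79Q alone and 0 in 18Q alone. In the 8 mice of 79Q, 40 genes had a positive slope with an unadjusted p under 0.001; in the 5 mice of 18Q, which did not enter that choice, all 40 had a positive slope and 35 an unadjusted p under 0.05, where 2.41% of all genes did, with a median slope of 0.74. In the opposite direction, 29 genes were chosen in 18Q; in 79Q all 29 had a positive slope and 26 an unadjusted p under 0.05, where 2.48% of all genes did, with a median slope of 0.85.

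**Figure D5:**
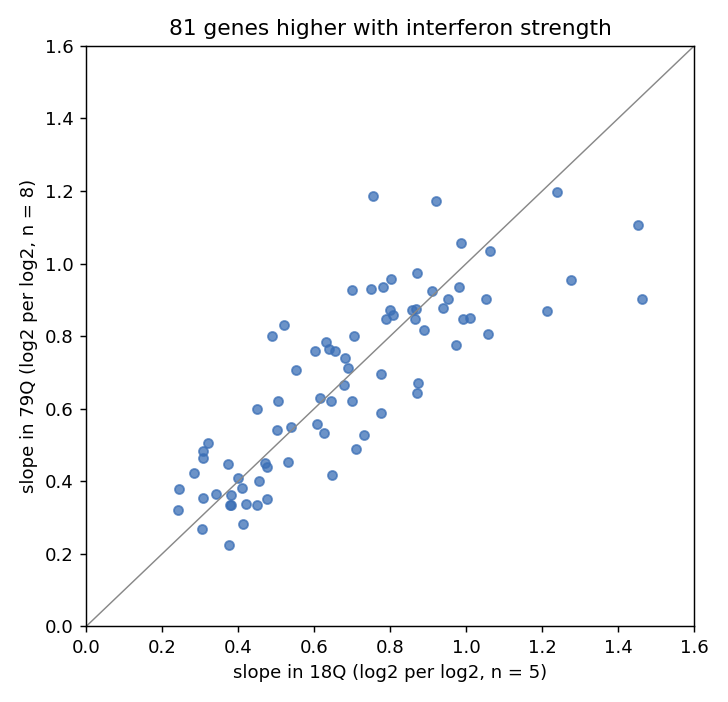
Slope on interferon strength of the 81 genes in 18Q (horizontal axis, 5 mice) and in 79Q (vertical axis, 8 mice), both in log2 per log2; the line marks equal slopes. All 81 genes have a positive slope in both groups, between 0.24 and 1.46 in 18Q and between 0.22 and 1.20 in 79Q. The genes were chosen on the slope over both groups together, so the shared sign follows largely from that choice.

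Most genes that rose with the strength were also higher in the injected than in the uninjected mice. Against WT control, 514 genes were higher in 18Q (2.57%) and 424 in 79Q (2.12%), with the 5 controls shared by both comparisons. Of 374 genes higher in both, 71 also rose with interferon strength, which is 19.0% of the 374 and 87.7% of the 81, and 315 (84.2%) had an unadjusted p under 0.05 for a positive slope, with a median slope of 0.40. Among the 81 genes, 5 were not called higher in 18Q and 10 not in 79Q. Mdm2 lay 0.20 above WT control in 18Q (SE 0.081, adjusted p = 0.293) and 0.23 in 79Q (SE 0.073, adjusted p = 0.138), and Nkg7 0.95 in 18Q (SE 0.23, adjusted p = 0.0351) and 0.78 in 79Q (SE 0.21, adjusted p = 0.0591). Cxcl13 lay 6.07 (SE 0.31) and 5.68 (SE 0.28) above WT control on the log2 scale in 18Q and 79Q. Igha lay 4.31 (SE 0.79) and 4.34 (SE 0.71) above. Of 37 genes lower in both groups, 35 had a negative slope, 6 of them with an unadjusted p under 0.05, and the median slope was -0.08.

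The same score was computed in the 20 BACHD and WT littermate arrays, which had no injection and did not enter the choice of the 81 genes. There the strength spanned no more than 0.36 within a group, against 1.29 or more in the injected groups. No gene followed it after adjustment (0%, limma), and 1096 were higher at an unadjusted p under 0.05 (5.47%). Of the 81 genes, 77 had a positive slope, where 79.4% of all genes did, and 12 had an unadjusted p under 0.05, with a median slope of 0.31 against 0.17 for all genes. Usp18 had a slope of 1.14 (SE 0.23) in these mice, whose arrays were normalized apart from those of the injected mice, Cxcl10 1.16 (SE 0.42), and Irf9 0.31 (SE 0.22). Nkg7 had a slope of 0.03 (SE 0.34) and Cybb 0.12 (SE 0.32).

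Promoter windows were at hand for 61 of the 81 genes (75.3%), under the 80% needed for the list to be described as a whole, so that the counts hold for these 61 alone. The interferon-stimulated response element, GAAANNGAAA, was present on either strand in 25 of the 61 (41%), in 3.49% of all 27025 promoters and in 15 of 217 promoters (6.91%) of genes raised in both injected groups whose slope did not pass. The gamma-activated sequence, an element of type II interferon targets, searched as TTCNNNGAA on both strands, was in 12 of the 61 (19.7%), in 8.47% of all promoters and in 26 of the 217 (12%). The NF-kB element, searched as GGGANNTTCC, was in 4 of the 61 (6.56%), in 1.43% of all promoters and in 7 of the 217 (3.23%). In the sequences printed above, the Ifit1 matches began at -104 and -85 relative to the gene start, that of Cxcl10 at -213 and that of Fcgr4 at -73. The window of Gbp7 also held 2 gamma-activated sequences, at -106 before the printed stretch and at -87 within it in lower case. That of Cxcl10 held 1 NF-kB element, which began at -159, past the end of the printed stretch. A match describes letters in a window and is no evidence of binding.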

How the data were processed

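Hypothalamic RNA of 1 mouse per array was hybridized to Affymetrix mouse gene arrays. Per the submitters' processing notes and the methods, the authors summarized and normalized the arrays by RMA in R 4.1.1 with affy 1.70.0 and limma 3.48.3, and the values show separate runs for the injection experiment and each BACHD age, so tests stayed within the experiments. The deposited values are log2 signals of 34760 probe sets, and array number, not depth, limits precision. Per the platform annotation, 21640 probe sets have 1 gene symbol, 1321 several and 11799 none given. Names for 101 more, Ifi44 among them, came from the study's supplementary sheet, which covers mainly probe sets that differed from WT. The probe set with the highest mean over the 13 arrays represents a gene, which leaves 20022 genes.

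Interferon strength was the mean of Ifit1, Oasl2 and Ifi44, each centered within group. Slopes were fitted with limma 3.58.1 in R 4.3.3 (lmFit and eBayes; a mean per group; moderated, two-sided), with Benjamini-Hochberg adjustment over all probe sets and a threshold of 0.05. Injected and uninjected mice were compared with 1 mean per group, and differences in slope by an interaction term. The correlation of array medians with strength used 100000 permutations within groups, two-sided. The fit was tested on simulated data. Named genes were the 3 score genes, the 12 steepest in each direction (filled up by smallest p), up to 4 genes of smallest p per list and 28 others chosen by name; B2m and Pld4 were chosen after their values were seen. The members, the 40 lists and these rules were chosen with earlier results of these data known. Alternatives covered the score genes, its scale, arrays, normalization, filters, covariates and weights. Replicate numbers were not used to pair the mice in the main fit. Same-numbered 18Q and 79Q mice deviated together at r of -0.25 to 0.09, and whether they shared a batch was not tested.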

Additional observations from a re-analysis of the deposited data

Results flagged for a closer look

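Of 249 sets of levels tested, 15 held a mouse apart from the rest of its group by Dixon's test, where chance gives 1 in 20. Most of the 15 were in 79Q, with replicate 7 the mouse most often apart. Many sets are levels of genes that vary together, so the cases are not independent and single cases carry little weight. No cause was tested. In 79Q, replicate 7, the mouse of highest interferon strength, was apart at the top for Irf7 (9.92, next mouse 9.18), Cxcl13 (12.13, next 11.27), Cfb (8.02, next 7.56), Vcam1 (9.43, next 9.19), P2ry12 (8.06, next 7.63), Trim30d (5.98, next 5.46) and Ifnar1 (9.27, next 9.20). Replicate 3 of 79Q was apart at the bottom for Igha (7.44, next 11.67) and Jchain (6.83, next 9.07), the plasma cell genes, while its interferon strength of -0.23 lay inside the range of its group. Replicate 2 of 79Q was highest for Ifnb1 (5.75, next 5.46).

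In 18Q, replicate 6, the mouse of lowest strength, was apart for C4b (10.03, next 10.80), and replicate 2 for Ifng (6.28, next 6.57). Among the uninjected mice, Ifi44 was low in replicate 5 (6.30, next 6.62), Ctss was low in replicate 4 (8.41, next 8.73) and C4b was high in replicate 2 (8.85, next 8.59).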

How the results depend on the processing

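Counts below are probe sets past the adjusted threshold, 110 higher and 2 lower as reported. The higher count was 279 with the score from the type I interferon list, 34 with ranks of interferon strength, 4 in 79Q alone, 0 in 18Q alone, 14 without the 2 mice farthest from the median strength, 174 among single-symbol probe sets alone and 195 with array weights; leaving out each mouse in turn gave 27 to 130. The other alternatives gave 92 to 154. The lower count was 1 with the score without Ifit1, with ranks and with each array centered on its median, 4 with the score without Oasl2 and without a group term, 6 after quantile normalization, 8 with array weights, and 0 in 79Q alone, in 18Q alone, without the 2 farthest mice and with oligodendrocyte and thalamic levels as covariates; leaving out each mouse gave 0 to 5. Replicate numbers were shared by 10 injected mice, and with the replicate number as a block, 0 were higher and 0 lower. That fit estimates a level for each number from few mice, so its 0 calls cannot be read either way. With the block, the count against WT control was 399 in place of 718 in 79Q. The slopes of P2ry12, Mvd, Htt and Ifnar1 turned sign under this block (-0.015, 0.0097, -0.011 and -0.078). Ifnb1 had a slope of -0.00033 with the score without Ifit1, -0.020 with the interferon list, -0.034 without a group term, -0.076 in 79Q alone, -0.011 on median-centered arrays and -0.0096 with the covariates, and -0.030 to 0.078 with each mouse left out. Ifnar1 had -0.073 in 18Q alone, -0.030 without the 2 farthest mice, -0.0049 on median-centered arrays and -0.0029 with array weights, and -0.039 to 0.028 with each mouse left out. Leaving out each mouse gave 469 to 1126 probe sets against WT control in 18Q (732 as reported here; lowest without 18Q replicate 4, highest without 18Q replicate 6) and 436 to 853 in 79Q (lowest without uninjected replicate 5; leaving out uninjected replicate 2 gave 473). The causes were not tested. The number of arrays limits what could be detected.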
